A study of Glycine max with 9 samples.

Results

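Soybean lines with a higher seed oil content were compared with lines with a lower one, gene by gene, in whole seeds at mid-maturation. The higher-oil set holds R05-4256 and R05-591, both described by their labels as high oil lines. The lower-oil set holds R95-1705, a high protein line, FAM94, a line rich in stearic acid, and N0304-303-3, which combines reduced palmitic and linolenic acid with a moderate oleic acid content. The lines were put in these sets by measured seed oil content, not by transcript values. Of the 9 lines sequenced, 5 enter the comparison. The labels of R02-6268F and R08-1450 also read high oil, but these lines stand outside both sets, as do Jack, with a commodity type of oil, and M23, a mid oleic line. All lines are untransformed Glycine max lines raised under 1 set of growth chamber conditions without a treatment, and their seeds were picked by weight and colour. Each line gave 1 library, so a line differs from another in its whole genetic background as well as in oil, and these cannot be told apart.

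The table gives, for each of 33779 genes, the mean FPKM (fragments per kilobase of transcript, scaled to the mapped fragments of the library) over the 9 lines and a Z-score per line. The Z-score is the distance of a line from the mean of the gene over the 9 lines, on the log2(FPKM + 1) scale, in units of the standard deviation of that gene over the lines. It has no unit, and a difference of Z-scores is not a fold change. For each gene, the mean Z-score of the 3 lower-oil lines was subtracted from that of the 2 higher-oil lines. The sets were said not to overlap when all 6 pairs of a higher-oil and a lower-oil line had the same sign. The gap is the distance between the nearest lines of the sets, written as a negative value where the higher-oil lines were lower. With 2 lines against 3, an exact two-sided permutation test cannot give a p below 0.2, so no gene was tested and all counts are descriptions of these libraries. Fewer cells of a type and less RNA per cell cannot be told apart in RNA from whole seeds.

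The soybean seed fills with protein and oil over the same weeks. Glycinins and β-conglycinins, the globulin reserves, and 2S albumins are deposited in protein storage vacuoles together with Kunitz and Bowman-Birk inhibitors of digestive proteases. Fatty acids are made in the plastid, where stearoyl-ACP desaturases (FAB2) turn stearate into oleate, are desaturated further by FAD2 and FAD3 in the endoplasmic reticulum, and are stored as triacylglycerol in oil bodies coated by oleosins and caleosins. Towards the end of filling, seeds accumulate late embryogenesis abundant (LEA) proteins and raffinose family sugars, which are known for protecting drying cells.

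Of the 33779 genes, 5298 (15.7%) were higher in both higher-oil lines than in every lower-oil line, and 5836 (17.3%) were lower in both. With the median Z-score of each line subtracted, the counts were 5733 and 5414, so which direction held more genes depended on this scaling. The gap reached at least 1 in 1035 genes that were higher (3.06%) and in 846 that were lower (2.50%). The 2 directions depended on the abundance of the transcript. Among 6600 genes with a mean below 1 FPKM, 1255 were higher and 598 lower in the higher-oil lines, and the median difference in mean Z-score was 0.19. Among the 7328 genes whose mean reached 10 FPKM, 872 (11.9%) were higher and 1732 (23.6%) lower, with a median difference of -0.38. The most abundant transcripts differed from this. Of 65 genes with a mean of 1000 FPKM or more, 14 were higher and 9 lower, with a median difference of 0.06, and of the 100 most abundant transcripts, from which the lists of inhibitors, storage, oil body, lipoxygenase and LEA genes were drawn, 22 were higher and 14 lower, with a median of 0.13. The median difference over all genes was -0.10.

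Several protease inhibitor genes, among the most abundant transcripts of the seed, were higher in both higher-oil lines. The list held 9 genes with Kunitz or Bowman-Birk in their annotation. Of these, 4 were higher in both higher-oil lines, 0 were lower, and 3 had a gap of at least 1. Among the 100 most abundant transcripts, 22 were higher and 14 lower, and 4 and 2 had such a gap. The Bowman-Birk inhibitor gene Glyma16g33400 (chromosome 16, 36335847 to 36336538, Williams 82 assembly, which gives all coordinates here) had a mean of 17690 FPKM. Its Z-score was 1.03 in R05-4256 and 1.54 in R05-591, against -0.97 in R95-1705, -0.74 in FAM94 and -0.40 in N0304-303-3. The higher-oil lines were the highest of all 9 lines, with a difference of 1.99 and a gap of 1.43.

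A second gene, annotated as an uncharacterized protein of Bowman-Birk isoinhibitor type, Glyma14g26410 (chromosome 14, 32380153 to 32381095, mean 3806 FPKM), had Z-scores of 1.86 in R05-4256 and 1.35 in R05-591. The lower-oil lines lay close together at -0.33, -0.15 and -0.50 in the order above, and no line outside the sets was above 0.02. The difference was 1.93, and the gap was the widest among the 10 annotated genes named for this direction. The Kunitz trypsin inhibitor gene Glyma08g45531 (chromosome 8, 44882983 to 44884058, mean 10455 FPKM) had Z-scores of 0.59 in R05-4256 and 1.04 in R05-591, and of -1.41, -0.45 and -0.74 in the lower-oil lines. Jack and M23, at 1.09 each, were close to R05-591. A second gene that the table places on the same span, with a mean of 586 FPKM and no annotation, gave a gap of 1.14 beside 1.03 for Glyma08g45531. The fourth inhibitor gene, the Kunitz gene Glyma01g10900 (1913 FPKM), had a gap of 0.77. Kunitz and Bowman-Birk genes are families of similar copies, and the authors discarded reads with more than 1 location, so a level can reflect the unique part of a copy only.

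The other 5 genes of the list overlapped between the sets, and like Glyma14g26410 are annotated as uncharacterized proteins of Bowman-Birk isoinhibitor type. They included Glyma08g47860 on a span of 98 bp, which was at 0 FPKM in R05-4256, FAM94 and M23 by tied lowest Z-scores. With 1 line left out at a time, 4 to 6 of the 9 genes were higher. None were lower without R05-591, N0304-303-3 or R95-1705, but 2 were lower without R05-4256 and 1 without FAM94. The median difference of 0.53 ranged from 0.39 without R95-1705 to 1.19 without R05-591. Without R95-1705, 6 of the 9 differences were above 0 and 3 below, beside 8 and 1 with all lines.

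**Figure D1:**
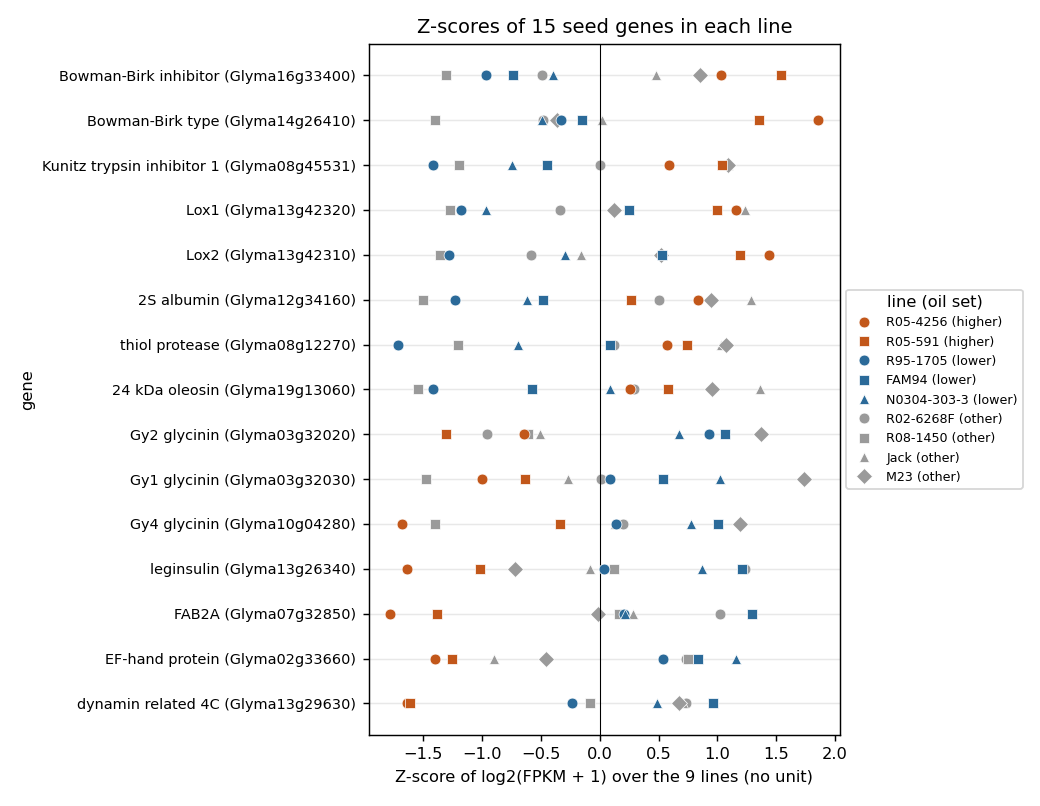
Z-scores of 15 abundant or named seed genes (y axis) in each of the 9 lines, with the Z-score of log2(FPKM + 1) on the x axis, orange points for the higher-oil lines, blue for the lower-oil lines and grey for the other 4. Only genes whose sets did not overlap are shown. Members of the same lists that overlapped, such as Gy5, Lox3 and the 2S albumin gene Glyma13g36400, are left out. The upper 8 genes have both orange points above all blue ones, with a gap of 1.43 for the Bowman-Birk gene Glyma16g33400 and 0.17 for the oleosin Glyma19g13060, and the lower 7 have them below.

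The storage protein genes did not move as 1 group. Of 10 genes, 4 were lower and 1 higher in both higher-oil lines, beside 14 and 22 of the 100 most abundant transcripts. The other 5 overlapped, and the median difference was -0.23. This median was -0.06 without R05-591 and -0.44 without R95-1705. The 4 that were lower included 3 of the 4 glycinin genes of this list, which was drawn from the 100 most abundant transcripts and does not hold every glycinin gene. The study's text describes a further glycinin gene, outside this list, as far less expressed in the high protein line than on average. In that lower-oil line this is the opposite direction to Gy1, Gy2 and Gy4, and the further gene was not counted here. Gy2 (Glyma03g32020, chromosome 3, 39830109 to 39837394, mean 21377 FPKM) had Z-scores of -0.65 in R05-4256 and -1.31 in R05-591, and of 0.93 in R95-1705, 1.07 in FAM94 and 0.67 in N0304-303-3. Its gap of -1.32 was the widest of the list, and Jack, R02-6268F and R08-1450 were also below 0. Gy1 (Glyma03g32030, 27377 FPKM) and Gy4 (Glyma10g04280, 22664 FPKM) had gaps of -0.72 and -0.47. Gy5 (Glyma13g18450, 11787 FPKM) overlapped, since R95-1705 at -0.37 lay between R05-4256 at -0.67 and R05-591 at -0.07. Gy1 and Gy2 lie next to each other on chromosome 3 and are similar copies, so reads that fit both were not counted for either.

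Among the β-conglycinins, the 3 genes annotated as α' subunit overlapped and the b subunit gene Glyma10g39170 was lower with a gap of -0.29, its Z-score being -1.93 in R05-591 and 0.25 in R05-4256. The napin-type 2S albumin gene Glyma12g34160 (8131 FPKM) was higher in both higher-oil lines, at 0.84 and 0.27, with the lower-oil lines from -1.23 to -0.49. The other 2S albumin gene, Glyma13g36400, which had the highest mean of the table at 33706 FPKM, overlapped with a difference of 0.59. Leginsulin 1 (Glyma13g26340, chromosome 13, 29542356 to 29550215, mean 7042 FPKM), a small sulphur-rich albumin, had Z-scores of -1.64 in R05-4256 and -1.02 in R05-591. In the lower-oil lines it was 0.04 in R95-1705, 1.21 in FAM94 and 0.87 in N0304-303-3, so the higher-oil lines were the lowest of all 9. A second gene on the leginsulin span (472 FPKM, no annotation) had a gap of -1.07.

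Of the 3 lipoxygenases, which oxidize polyunsaturated fatty acids, 2 were higher in both higher-oil lines, beside 22 of the 100 most abundant transcripts. Lox1 (Glyma13g42320, 2591 FPKM) had Z-scores of 1.16 in R05-4256 and 1.0 in R05-591, and of -1.18, 0.25 and -0.97 in R95-1705, FAM94 and N0304-303-3. Lox2 (Glyma13g42310, 2378 FPKM), its neighbour on chromosome 13, was at 1.44 and 1.20 in the higher-oil lines and at most 0.52 in the lower-oil lines. Lox3 (Glyma15g03030), with 14408 FPKM the most abundant of the 3, overlapped, with 0.94 in R05-4256 but -1.02 in R05-591. The 34 kDa seed vacuolar thiol protease Glyma08g12270 (14645 FPKM) was higher in both with a gap of 0.48, and the other 3 protease genes overlapped.

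Genes of the oil body went both ways between the oil sets. Of 6 oleosins and 1 caleosin, 1 was higher, 2 were lower and 4 overlapped, and the median difference was 0.66. With so few genes, these counts cannot be told apart from the shares over all genes, 15.7% higher and 17.3% lower. Without R95-1705 the median difference was 0.11, with 4 differences above 0 and 3 below. The 24 kDa oleosin Glyma19g13060 (6719 FPKM) was higher in both, with Z-scores of 0.26 and 0.58 against -1.42 in R95-1705, -0.57 in FAM94 and 0.09 in N0304-303-3. The oleosin Glyma05g08880 and the caleosin Glyma10g33350 were lower with gaps of only -0.14 and -0.02, and both were lowest in R05-591 (-2.08 and -2.10). R95-1705 was the lowest of the 5 compared lines in 5 of these 7 genes. Jack and M23, outside the sets, held the highest Z-score of the 9 lines in 5 of the 7.

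Among the 8 desaturase genes named in the study's text, the widest gap was in FAB2A (Glyma07g32850, chromosome 7, 37734424 to 37738530, mean 35.4 FPKM), which makes oleate from stearate. Its Z-score was -1.78 in R05-4256 and -1.38 in R05-591, against 0.20 in R95-1705, 1.29 in FAM94 and 0.21 in N0304-303-3. The gap was -1.58, and the 4 other lines all lay between -0.02 and 1.02, so that the higher-oil lines stood apart at the low end. The more abundant copies FAB2C (Glyma14g27990, 433 FPKM) and FAB2B (Glyma02g15600, 175 FPKM) overlapped. FAD2-1B (Glyma20g24530, 2846 FPKM) and FAD2-1A (Glyma10g42470, 384 FPKM), which make linoleate from oleate, overlapped as well, with differences of 0.83 and 0.34.

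FAD3C (Glyma18g06950, 11.3 FPKM), which makes linolenate, was higher in both higher-oil lines with a gap of 0.43. FAD3A (Glyma14g37350, 40.1 FPKM) was higher with a gap of 0.07, and its lowest Z-score of -2.31 was in N0304-303-3, the line labelled as low in linolenic acid. FAD3B (Glyma02g39230) overlapped. A wider list of 58 acyl lipid genes includes the oleosins, lipoxygenases and lipid transfer proteins. Of these, 14 were higher and 4 lower, beside 15.7% and 17.3% over all genes. The other 40 overlapped, and the median difference of the list was 0.41. Without R05-591 this median was 0.09, with 30 differences above 0 and 28 below, and 22 genes were higher and 13 lower. Without R95-1705 the median was 0.24. This list and the next ones draw largely on genes that the study had selected for variation among these same 9 libraries, so their counts are no independent evidence. Only a part of those selected genes was read here. A glycerol-3-phosphate dehydrogenase (Glyma05g24070, 2.2 FPKM), an enzyme of the glycerol backbone, had Z-scores of 0.72 and 0.76 in the higher-oil lines and -2.43, -0.16 and -0.08 in the lower-oil lines. A thioesterase superfamily gene (Glyma02g38940, 8.9 FPKM) had a gap of 0.71. Within the list, 13 genes had lipid transfer in their annotation, most of them through a superfamily name that also covers inhibitors and 2S albumins. Of these, 5 were higher and 2 lower, beside 15.7% and 17.3% over all genes. Glyma01g32760, annotated as lipid transfer protein 1 (11.7 FPKM), had a gap of 1.20.

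**Figure D2:**
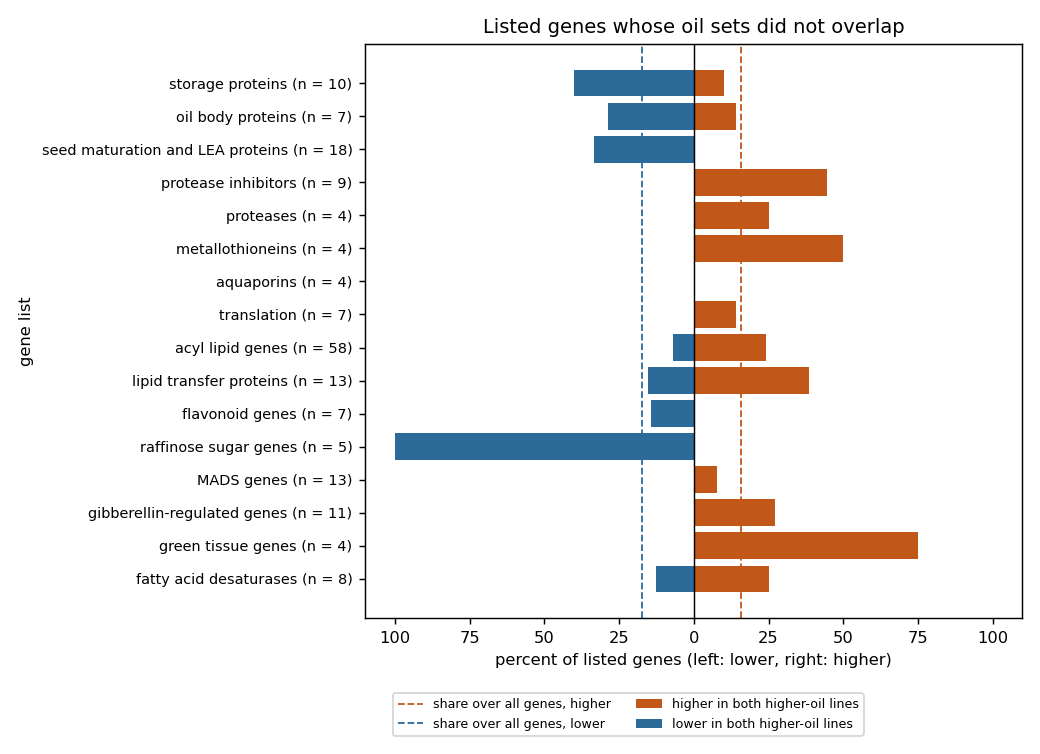
Percent of the genes of each list (y axis, with its number of genes) that were higher (orange, to the right) or lower (blue, to the left) in both higher-oil lines without overlap, with dashed lines at 15.7% and 17.3%, the shares over all genes. The protease inhibitor list extends only to the higher side (4 of 9) and the raffinose sugar list only to the lower side (5 of 5).

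Transcripts of late maturation were lower in the higher-oil lines in direction, but mainly through R05-591. All 18 genes of the seed maturation and LEA list had a difference below 0, with a median of -1.48. Yet only 6 did not overlap, with gaps from -0.11 to -0.63, beside 14 lower of the 100 most abundant transcripts. R05-591 had the lowest Z-score of all 9 lines in 17 of the 18. The LEA gene Glyma13g31120 (862 FPKM) had the widest gap, with -0.31 in R05-4256 and -1.97 in R05-591, against 0.95 in R95-1705, 0.33 in FAM94 and 0.78 in N0304-303-3. The mean Z-score of the list was 0.09 in R05-4256 and -1.91 in R05-591, and 0.71, -0.17 and 0.70 in the lower-oil lines, so the 2 higher-oil lines were far from each other. Without R05-591 the median difference was -0.58, with 13 of the 18 differences below 0 and 5 above. Without R05-4256 the median was -2.48.

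The 5 genes of raffinose family sugars were all lower in both higher-oil lines, beside 17.3% of all genes. Galactinol synthase, which makes the galactose donor for these sugars, was represented by Glyma03g38080 (62.1 FPKM), Glyma19g40680, Glyma10g28610 and Glyma03g38910, with gaps of -0.10, -0.22, -0.01 and -0.62. The stachyose synthase gene Glyma19g40550 (46.7 FPKM) had Z-scores of -0.19 in R05-4256 and -1.68 in R05-591, and of 1.12, 0.11 and 0.66 in the lower-oil lines. R05-591 was again the lowest of the 9 lines in all 5 genes. R05-4256 alone was below the 3 lower-oil lines in all 5 genes as well, with a median difference of -0.83 without R05-591. The gap was no wider than -0.31 in 4 of the 5. The mean of the seed maturation and LEA list did not separate the sets, since R05-4256 lay above FAM94. The part of the low late maturation transcripts of R05-591 in the other differences was not tested.

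**Figure D3:**
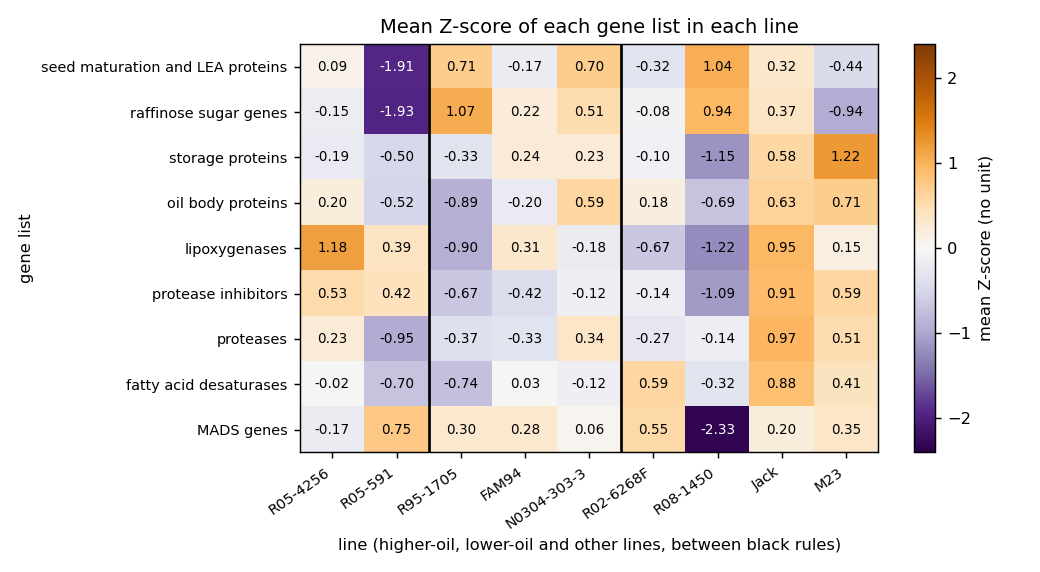
Mean Z-score (colour and printed value) of 9 gene lists (rows) in each line (columns), with the higher-oil lines left of the first black rule, the lower-oil lines between the rules and the 4 other lines to the right. R05-591 is at -1.91 for the seed maturation and LEA list and -1.93 for the raffinose sugar list, while R05-4256 is at 0.09 and -0.15.

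Marker genes of other seed parts were looked up in the same way, beside shares of 15.7% higher and 17.3% lower over all genes. Of 7 flavonoid genes, which in soybean are active in the seed coat, 0 were higher, 1 was lower and 6 overlapped. Their mean Z-score ranged from -0.50 to -0.39 in the higher-oil lines and from -0.03 to 0.51 in the lower-oil lines. Of 4 genes of green tissue, 3 were higher in both higher-oil lines, with mean Z-scores of the list of 0.34 and 0.25 against -0.75, -0.05 and -0.37. The chlorophyll A/B binding gene Glyma08g08770 (104 FPKM) had a gap of 0.36. The fourth gene, the Rubisco small chain Glyma13g00910 (42.8 FPKM), overlapped with a difference of -1.58, its Z-score being -2.10 in R05-591 and 0.05 in R05-4256. None of the genes in these lists, or in the storage and LEA lists, was at 0 FPKM in any line of the comparison by tied lowest Z-scores, and the part of these tissues in the results was not tested.

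Other annotated genes with a wide gap and a mean of 10 FPKM or more had varied roles. On the higher side they included a cytochrome P450 (Glyma20g33090, 34.8 FPKM, gap 1.22), arabinogalactan protein 16, a cell wall glycoprotein (Glyma05g37085, 770 FPKM, gap 1.05), a folic acid binding transferase (Glyma01g09900, gap 1.05), a senescence-related gene (Glyma01g06820, gap 1.01), a cupin superfamily gene (Glyma08g13440, gap 1.0) and a glutathione S-transferase (Glyma01g04710, gap 0.96). Arabinogalactan protein 16 had its highest Z-score in Jack (1.89), not in the higher-oil lines (1.0 and 0.18).

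On the lower side, a calcium-binding EF-hand gene (Glyma02g33660, chromosome 2, 37426872 to 37431008, 35.8 FPKM) had a gap of -1.79. This was the widest of the genes annotated in the part of the supplementary tables read here. Its Z-score was -1.40 in R05-4256 and -1.26 in R05-591, and 0.54, 0.84 and 1.16 in R95-1705, FAM94 and N0304-303-3. A dynamin-related gene (Glyma13g29630, 44.1 FPKM) was at -1.64 and -1.61 in the higher-oil lines while no other line was below -0.23. The gene annotated as maternal effect embryo arrest 59 (Glyma01g39750, 37.3 FPKM) had a gap of -1.37, an O-methyltransferase (Glyma20g35620) -1.27, a RING finger gene (Glyma05g34580) -1.19 and fibrillarin 2, a nucleolar protein (Glyma04g37770), -1.12. A bZIP transcription factor gene (Glyma17g29170) had a gap of -1.09, although R08-1450 and M23 were lower still at -1.29 and -1.51. The chaperonin 10 gene Glyma03g28120 followed with -0.98.

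The widest gaps at a mean of 10 FPKM or more lay in genes to which the tables used here give no name. On chromosome 15, the gene at 7232538 to 7244588 (15.8 FPKM) had Z-scores of -1.41 and -1.49 in R05-4256 and R05-591, and of 0.96, 0.80 and 1.17 in the lower-oil lines, a gap of -2.21. The gene on chromosome 11 at 35513816 to 35519197 (28.3 FPKM) had a gap of -2.05 and that on chromosome 9 at 43225859 to 43238008 (11.1 FPKM) one of -2.02. On the higher side, the gene on chromosome 10 at 40021608 to 40026687 (50.3 FPKM) was at 1.12 and 1.45, with -0.84, -0.99 and -1.32 in the lower-oil lines. Both genes on chromosome 17 at 8773216 to 8777388 (15.4 FPKM) and on chromosome 5 at 40529553 to 40531831 (10.8 FPKM) had a gap of 1.93. In the gene on chromosome 17, no line but the 2 higher-oil lines was above 0. In the one on chromosome 5, R02-6268F was as high as the higher-oil lines at 1.0. A gene on chromosome 13 at 476497 to 476658 (10.6 FPKM, 162 bp) had a gap of 1.92, with 4 lines tied at the lowest Z-score. Among the most abundant genes with a gap of at least 1, an unnamed gene on chromosome 8 at 14115550 to 14119856 (158 FPKM) had a gap of -1.27.

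Some genes were present in one set and at 0 FPKM in the other. Where 2 or more lines share the lowest Z-score and this stands for 0 FPKM, the FPKM of each line follows from the mean FPKM and the Z-scores. Of the 33779 genes, 895 had a tied lowest Z-score in 2 or more lines. There were 40 genes above 0 in both higher-oil lines and at 0 in all 3 lower-oil lines. The opposite pattern was seen in 42 genes, and 3 and 4 of these genes reached a mean of 10 FPKM. How many genes show such patterns for other sets of lines was not counted. On scaffold_57 at 107180 to 107306, R05-4256 had a solved value of 144 FPKM and R05-591 of 375 FPKM, with the other 7 lines taken as 0. A neighbour on the same scaffold, at 104645 to 104812, had 33.0 and 50.3 FPKM in these lines and 0 in the other 7. A gene on chromosome 2 at 9144600 to 9144852 repeated this pattern with 23.2 and 21.3 FPKM. The 3 spans were 127, 168 and 253 bp long.

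In the opposite pattern, a gene on chromosome 19 at 43726406 to 43726526 was at 0 only in the 2 higher-oil lines. It had 167 FPKM in R95-1705, 498 in FAM94 and 178 in N0304-303-3, and between 130 and 990 in the other 4 lines. The gene on chromosome 17 at 22636151 to 22636385 was likewise at 0 in both higher-oil lines and had 24.8, 18.5 and 13.8 FPKM in the lower-oil lines. On chromosome 14 at 10439598 to 10439749 the lower-oil lines had 191, 162 and 105 FPKM, and Jack was at 0 together with the higher-oil lines. The spans of 121, 235 and 152 bp are short, and the number of reads behind a value is not known here.

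The called genes were spread over the genome. The share of genes that did not overlap ranged from 30.4% to 35.2% over the 20 chromosomes, and the share with a gap of at least 1 from 4.53% to 6.67%. There was 1 run of 3 or more neighbouring genes that all had a gap of at least 1 in the same direction. It lay on chromosome 6 at 10910263 to 10930670, where 3 genes with means of 11.9, 3.0 and 11.3 FPKM were lower in the higher-oil lines with gaps of -1.01, -1.38 and -1.23. With no minimum on the gap, 305 runs were found, 150 higher and 155 lower. The longest held 7 genes on chromosome 8 from 11686602 to 11771598, all lower in both higher-oil lines, with a median difference of -1.69.

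Over all genes, Pearson's r of the Z-scores of the 2 higher-oil lines was 0.09, and 56.1% of genes lay on the same side of 0. Within the lower-oil set, r was -0.02 for R95-1705 with FAM94, 0.06 for R95-1705 with N0304-303-3 and 0.03 for FAM94 with N0304-303-3. Between the sets, r ranged from -0.42 for R05-591 with R95-1705 to 0.02 for R05-591 with FAM94, and the latter was above the lowest value within the lower-oil set. These correlations are over genes, which are not independent, and the Z-scores of a gene sum to 0 over the lines, so values between lines tend to be negative. In the 1035 genes higher with a gap of at least 1, R95-1705 was the lowest of the 3 lower-oil lines in 48.6%, N0304-303-3 in 35.7% and FAM94 in 21.3%, ties counted for each line.

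The same counts were made for every other choice of 2 against 3 of the 9 lines, which gave 1259 choices beside this one. The higher-oil and lower-oil sets had 11134 genes that did not overlap (33.0%), against a median of 6090 over the other choices and a range from 2668 to 17085. Of the other choices, 104 gave at least as many. For gaps of at least 1, the sets had 1881 genes, against a median of 657 and a range from 179 to 6419, and 94 choices gave at least as many. Among the 9 other ways to choose 2 against 3 within the same 5 lines, the counts ran from 3700 to 10137 genes and from 287 to 1295 with a gap of at least 1, all below those of the oil sets. The 10 highest counts of all came from choices with R08-1450 and R95-1705 as the 2 lines. When R05-4256 and R05-591 were kept together and any 3 of the other lines set against them, 2 of the 34 other choices gave at least 11134 genes. These choices share lines with one another, and their order is a description of 9 libraries.

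**Figure D4:**
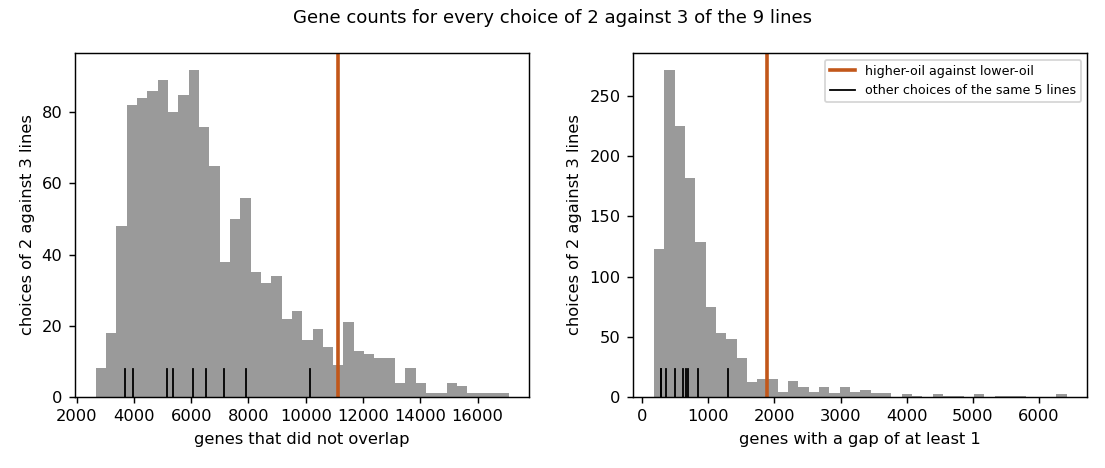
Number of choices of 2 against 3 of the 9 lines (y axis) by the number of genes that did not overlap (left, x axis) or that had a gap of at least 1 (right, x axis), with an orange line for the higher-oil against lower-oil sets and black ticks for the 9 other choices of the same 5 lines. The orange lines stand at 11134 and 1881 genes, to the right of all black ticks.

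The 4 lines outside the sets took different places in the genes with a gap of at least 1. R08-1450, labelled high oil, lay nearer the higher-oil mean in only 21.3% of the 1035 genes that were higher and in 20.9% of the 846 that were lower, with a median Z-score of -0.66 and 0.77. Over all genes, the r of R08-1450 was -0.50 with R05-591 and -0.14 with R05-4256. It was 0.34 with R95-1705, -0.10 with FAM94 and -0.04 with N0304-303-3. Since the Z-scores of a gene sum to 0, the places of the 4 lines are tied to one another and to the sets. R02-6268F, also labelled high oil, lay nearer the higher-oil mean in 54.1% and 45.5%. Jack did so in 63.1% and 59.9%, and M23 in 66.1% and 60.8%. With R02-6268F added to the higher-oil set, 336 genes were higher and 213 lower with a gap of at least 1, and with all 4 labelled lines against the 3 lower-oil lines, 61 and 44.

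**Figure D5:**
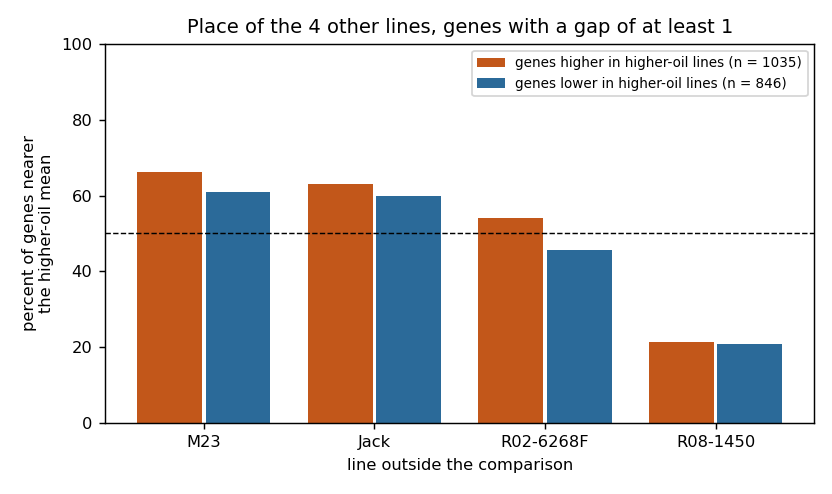
Percent of genes with a gap of at least 1 (y axis) in which each line outside the sets (x axis) lay nearer the mean of the higher-oil lines, for the 1035 genes higher (orange) and the 846 genes lower (blue) in the higher-oil lines, with a dashed line at 50%. R08-1450 is at 21.3% and 20.9%, and M23, Jack and R02-6268F are between 45.5% and 66.1%.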

How the data were processed

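RNA was measured in whole seeds of 9 soybean lines at mid-maturation, 1 library per line. The authors trimmed paired reads and placed them on the Williams 82 assembly (Bowtie 0.12.8 and TopHat 1.4.0). Reads with several locations were dropped, and Cufflinks and Cuffdiff (both 2.1.1) gave FPKM. The deposited table holds the mean FPKM over the 9 lines and a Z-score per line. The authors made each score from log2-transformed FPKM of a gene over the 9 lines before it was deposited. The lowest and highest FPKM given for the 100 most abundant transcripts gave back the deposited mean FPKM within 7.36e-07% with a constant of 1, so the scale was taken as log2(FPKM + 1). Of the columns per line, 0 were left unused. The table holds no counts, and no depth or interval is given.

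Sets of lines follow the oil content measured by the study. Ties were called within 1e-06. Names and annotations came from the study's supplementary tables, matched by span or by chromosome and mean FPKM (100 of 100, 1998 of 1998 and 269 of 270 entries), and from 5 desaturase genes of its text, matched by chromosome and mean FPKM. The study's list of variable genes was read only in part, so its 1998 entries are fewer than the study reports. Of the 33779 genes, 1927 had a name and an annotation from what was read, so gene lists and rankings of annotated genes are partial. Members of the wider lists with a mean below 10 FPKM lie mostly on the first chromosomes. FPKM per line was solved for genes at 0 in both or all lines of a set. The genes named are the list members the text describes and, in each direction, the 10 annotated and the 5 overall widest gaps at a mean of 10 FPKM or more, the 5 most abundant genes with a gap of at least 1, and the longest runs. The genes at 0 in one set, the acyl lipid examples and the chlorophyll gene were picked with their values in view. The members and lists were chosen with earlier results of these data known.

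No gene was tested. Alternatives were filters at a mean of 1 and 10 FPKM, tied genes left out, 1 gene per span, line medians subtracted, Z-scores over 8 lines, other line sets, gaps of 0.5 and 1.5, medians in place of means, each line left out in turn, and, added after the data were seen, the lists without each line. On simulated data, 200 of 200 planted genes were recovered. The planted sets lay far apart with little noise, so this checks the code and not how well real differences are found. Python 3.11.15, NumPy 2.4.6, pandas and Matplotlib were used.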

Additional observations from a re-analysis of the deposited data

How the results depend on the processing

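Against 5298 genes higher and 5836 lower without overlap, and 1035 and 846 with a gap of at least 1, the counts stayed within 1.5 times with tied genes left out, 1 gene per span, line medians subtracted, 8-line Z-scores or a mean of at least 1 FPKM. At a mean of at least 10 FPKM they were 872, 1732, 157 and 293. With line medians subtracted, 62.7% of the genes with a gap of at least 1 were higher, beside 55.0% as deposited. The counts without overlap were then 5733 higher and 5414 lower. This made 51.4% higher, beside 47.6% as deposited, so the order of the directions was reversed. With R02-6268F added to the higher-oil set the counts were 3432, 3554, 336 and 213, with M23 added to the lower-oil set 2555, 2927, 280 and 239, and with the 4 lines labelled high oil 1024, 903, 61 and 44. Each added line adds pairs that must have the same sign, and each line left out removes some. Leaving out 1 line at a time gave 6806 (R95-1705) to 9768 (R05-4256) genes higher and 7776 (N0304-303-3) to 10928 (R05-4256) lower, and 1527 (R95-1705) to 3775 (R05-4256) and 1606 (N0304-303-3) to 3710 (R05-4256) with a gap of at least 1. Without R05-591 the 4 counts were 8813, 9755, 2617 and 2468, and without FAM94 7612, 8444, 2461 and 2020. A gap of at least 0.5 gave 2672 higher and 2678 lower, and a gap of at least 1.5 gave 230 and 185. Runs numbered 2 at a mean of at least 1 FPKM and 0 with a minimum of 4 genes, beside 1. The differences of 188 genes were recomputed under 8 settings, and 142 of 1504 values moved by more than the spread of the lines within the sets. For the 82 genes without overlap, most of these settings cannot change the sign. No paired analysis was possible because each line has 1 library. Without counts or replicates, no value has an error, and low or short genes are the least certain.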

Other observations

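Several lists that hold no reserve or lipid genes were also read across the oil sets. The shares over all genes were 15.7% higher and 17.3% lower. Of 4 abundant metallothioneins, which bind metal ions, the 2 annotated as metallothionein 2A were higher in both higher-oil lines, Glyma07g15800 (4694 FPKM) with a gap of 0.05 and Glyma18g39690 (721 FPKM) with 0.25. The highest Z-scores of both were in Jack, at 2.26 and 1.77. All 4 aquaporins overlapped. Of 7 translation genes, only Glyma08g11040, annotated as ribosome associated membrane protein RAMP4, was higher in both, with a gap of 0.09. Of 11 gibberellin-regulated genes, 3 were higher and 0 lower, with the widest gap of 0.76 in Glyma08g40260 (661 FPKM). Of 13 MADS-box genes, 1 was higher and 12 overlapped. The higher-oil lines lay apart here, with 7 genes lower and 1 higher without R05-591, and 8 higher and 1 lower without R05-4256. The mean Z-score of the list was -2.33 in R08-1450, which is outside the sets. Lectin Le1 (Glyma02g01590) appeared under 2 entries of the table with means of 3969 and 2012 FPKM, which gave the sets gaps of 0.04 and 0.05.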
